A study of Mus musculus with 8 samples.

Results

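The genes of p53 signalling, apoptosis, necroptosis and senescence were examined in mouse hearts under pressure overload, as 39 members of the 56748 genes in the deposited table. Members were the rows whose gene symbol is on a list of p53 and its targets, cell cycle inhibitors, the Bcl2 family, death receptors, caspases, inhibitors of apoptosis and the kinases of necroptosis, and all 39 symbols were found. In CS7KO hearts Smad7, an inhibitor of TGF-beta signalling, was excised in cardiomyocytes by Cre, which the promoter of alpha myosin heavy chain (aMHC) drives, and CRE hearts carried that Cre as the control. Mice of both groups were labelled C56BL, were 3 to 4 months old, and were studied 56 days after transverse aortic constriction, or TAC. In TAC the aorta is tied narrow between the innominate and left carotid arteries, so that the ventricle must pump against a higher resistance, and no group without TAC or without Cre was analysed here. RNA of each whole heart gave 1 library. There were 4 CS7KO libraries, numbered 1 to 4, and 4 CRE libraries, numbered 1, 2, 3 and 5. In each genotype the lower 2 numbers were labelled male and the higher 2 female. The Cre acts in cardiomyocytes, while a whole heart also gives RNA of endothelial cells, fibroblasts, immune cells and smooth muscle, in which Smad7 is left in place.

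The p53 protein is held at a low level by Mdm2, a ubiquitin ligase that p53 itself induces, and stress on DNA or metabolism frees it to switch on genes of cell cycle arrest, antioxidant defence and death. In the mitochondrial path of apoptosis, BH3-only proteins neutralise the guardians Bcl2, Bcl2l1 (Bcl-xL) and Mcl1, the effectors Bax and Bak1 open the outer mitochondrial membrane, and released cytochrome c builds the Apaf1 apoptosome that activates caspase 9. Death receptors such as Fas act through caspase 8, and where caspase 8 is idle the kinases Ripk1 and Ripk3 can activate Mlkl, which breaks the plasma membrane in necroptosis. Adult cardiomyocytes rarely divide, and their loss by apoptosis and necroptosis is known in hearts under chronic load.

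The libraries themselves differed, more so among the CRE hearts. Total counts lay between 16679724 and 40181492 in CS7KO and between 16476420 and 29751644 in CRE libraries. Genes of the mitochondrial genome took 20.2% to 24.9% of the counts in CS7KO libraries, against 15.04%, 20.3%, 41.1% and 69.8% in CRE 1, 2, 3 and 5. Low counts were rare in CRE 1: genes with 1 to 9 counts numbered 5848 to 19697 in 7 libraries and 537 in that one, and 3 members (Cdkn2b, Eda2r and Tnfrsf10b) had 0 counts there and in no other library. With so few low counts in CRE 1, a 0 there gives no limit on the level of the gene. CPM below is the usual depth-scaled count, here on library sizes after TMM scaling. The defining markers of cardiomyocytes were present in all libraries, with a summed level of 44622 to 53944 CPM in CS7KO and 19277 to 54930 CPM in CRE for 10 genes. Smad7 had 19.8, 13.3, 27.8 and 12.3 CPM in CS7KO 1 to 4, against 17.6, 25.5, 25.2 and 45.4 CPM in CRE 1, 2, 3 and 5 (log2 fold change -0.59, SE 0.34, edgeR adjusted p = 0.509). The groups overlapped in Smad7, and since the whole gene was counted in the whole heart, this value does not settle the genotype labels. The design text calls the samples independent, and where that does not mean separate animals the p-values measure only the spread between these samples.

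Promoters of the p53 target genes are shown first, because some of them hold matches to a decamer of the p53 motif. The p53 response element is built of decamers of 10 bases, so a single decamer is a part of an element and not the whole. Single decamers were searched on both strands, in windows from 250 bases before to 50 bases after a start site of RefSeq on GRCm38.p6. Of the 39 members, 35 had an entry, with 48 windows, and 8 members had at least 1 decamer: Aen, Bax, Ccng1, Cdkn1a, Gadd45a, Mdm2, Sesn1 and Trp53. Over all 32841 windows of the genome, 8.36% had one, and 9 of the 48 windows of members did. The windows of 5 members described below follow 5′ to 3′ on the strand of the gene, with each matched decamer in capitals.
Cdkn1a (chr17:29090729-29091028, plus strand): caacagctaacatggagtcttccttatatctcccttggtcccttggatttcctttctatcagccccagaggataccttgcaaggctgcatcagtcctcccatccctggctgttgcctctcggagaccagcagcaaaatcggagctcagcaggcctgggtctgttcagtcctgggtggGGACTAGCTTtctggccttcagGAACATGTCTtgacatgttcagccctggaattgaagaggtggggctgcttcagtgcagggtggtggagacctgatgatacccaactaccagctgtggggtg
Mdm2 (chr10:117710709-117711008, minus strand): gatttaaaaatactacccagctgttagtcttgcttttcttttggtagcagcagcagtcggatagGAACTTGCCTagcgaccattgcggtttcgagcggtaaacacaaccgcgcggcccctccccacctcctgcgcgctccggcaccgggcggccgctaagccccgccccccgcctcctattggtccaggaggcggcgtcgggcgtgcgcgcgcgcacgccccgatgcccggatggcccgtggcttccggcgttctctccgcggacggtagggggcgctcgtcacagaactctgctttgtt
Ccng1 (chr11:40755237-40755536, minus strand): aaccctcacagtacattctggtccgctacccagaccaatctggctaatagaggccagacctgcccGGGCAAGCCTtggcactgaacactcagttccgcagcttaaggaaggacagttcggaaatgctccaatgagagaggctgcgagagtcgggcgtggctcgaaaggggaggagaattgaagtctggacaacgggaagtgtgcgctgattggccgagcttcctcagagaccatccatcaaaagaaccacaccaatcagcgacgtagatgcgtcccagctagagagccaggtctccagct
Sesn1 (chr10:41887189-41887488, plus strand): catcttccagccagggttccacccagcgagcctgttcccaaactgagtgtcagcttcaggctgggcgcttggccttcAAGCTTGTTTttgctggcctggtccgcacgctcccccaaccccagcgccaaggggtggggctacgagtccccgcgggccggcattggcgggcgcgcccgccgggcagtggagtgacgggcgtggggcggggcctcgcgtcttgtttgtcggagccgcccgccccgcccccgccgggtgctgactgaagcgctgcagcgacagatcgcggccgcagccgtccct
Bax (chr7:45466849-45467148, minus strand): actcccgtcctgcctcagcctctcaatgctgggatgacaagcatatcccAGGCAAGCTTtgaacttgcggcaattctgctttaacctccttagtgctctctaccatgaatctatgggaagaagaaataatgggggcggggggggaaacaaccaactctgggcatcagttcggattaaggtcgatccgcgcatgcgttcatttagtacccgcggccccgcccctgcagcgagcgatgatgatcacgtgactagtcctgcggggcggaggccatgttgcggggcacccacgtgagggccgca
The Cdkn1a window is that of an upstream start site, and its decamers begin 73 and 51 bases before that start. The other Cdkn1a window and the other Sesn1 window had none. In the Mdm2, Ccng1, Sesn1 and Bax windows the decamer began 186, 185, 173 and 201 bases before the start. A match of letters is a description of the sequence and no measurement of binding, and other decamers can lie outside these windows. The FoxO motif GTAAACA, searched on both strands in the same windows, was present in 3.65% of all windows and in windows of Bbc3, Bcl2l11, Eda2r, Mdm2 and Sesn1. That of Sesn1 lay in its other window, which is not shown.

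No member passed the test between CS7KO and CRE hearts, and the fitted differences ran from Casp8, the initiator caspase of death receptors, at -1.16 to Cdkn1a, the p53 target that encodes p21, at 1.59 on the log2 scale. Of 39 members 38 had enough counts to be tested, and 0 passed in either direction (edgeR quasi-likelihood test, adjusted p under 0.05 over 16002 genes), where 6 of all 16002 genes passed (0.0375%), 3 of them higher in CS7KO (0.0187%) and 3 lower (0.0187%). The smallest adjusted p among members was 0.291. At an unadjusted p under 0.05 there were 6 of the 38 (Sesn1, Ccng1, Casp8, Bax, Bcl2l1 and Cdkn1a), against 12.6% of all tested genes. DESeq2 called 2 of the 38, Sesn1 and Ccng1, both higher in CS7KO, and 3.14% of all tested genes. The members did not lean one way: 17 had a fitted fold change above 0 and 21 below it, with a median log2 fold change of -0.03, against a median of 0.03 for all tested genes, of which 48.1% lay below 0. The groups did not overlap in 3 members, with CS7KO above CRE in Sesn1 and Tigar and below it in Trp53, and in 10.3% of all tested genes, with CS7KO above in 6.24% and below in 4.11%. In this bulk tissue, fewer cells of a type and less RNA per cell cannot be told apart.

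**Figure D1:**
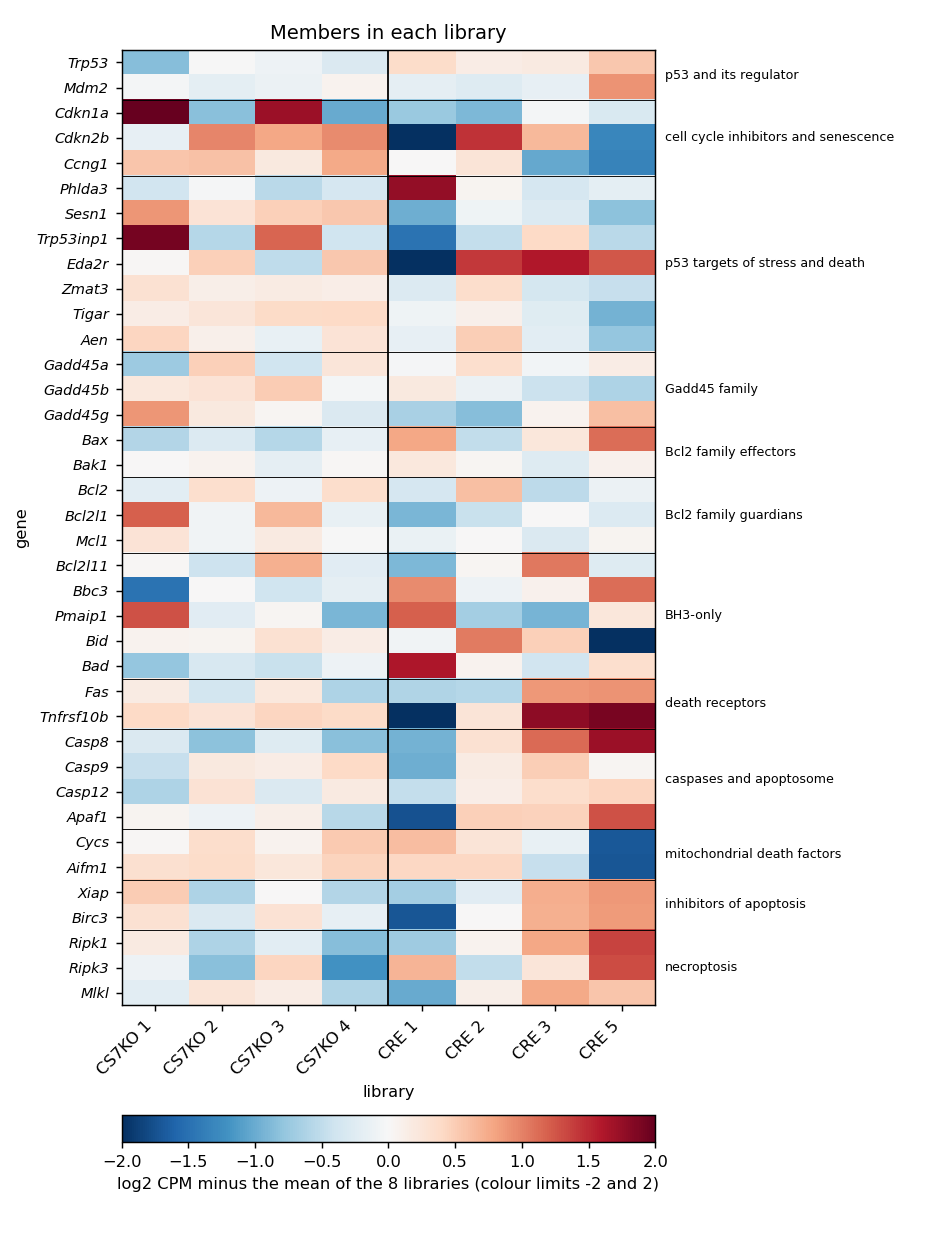
Log2 CPM of each of the 38 tested members (rows, by role) in the 8 libraries (columns, CS7KO left of CRE), minus the gene's mean over the libraries; red is above and blue below that mean. Cdkn1a and Trp53inp1 are red in CS7KO 1 and 3 and not in CS7KO 2 and 4, and Casp8, Fas, Xiap and Ripk1 are red in CRE 3 and CRE 5.

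**Figure D2:**
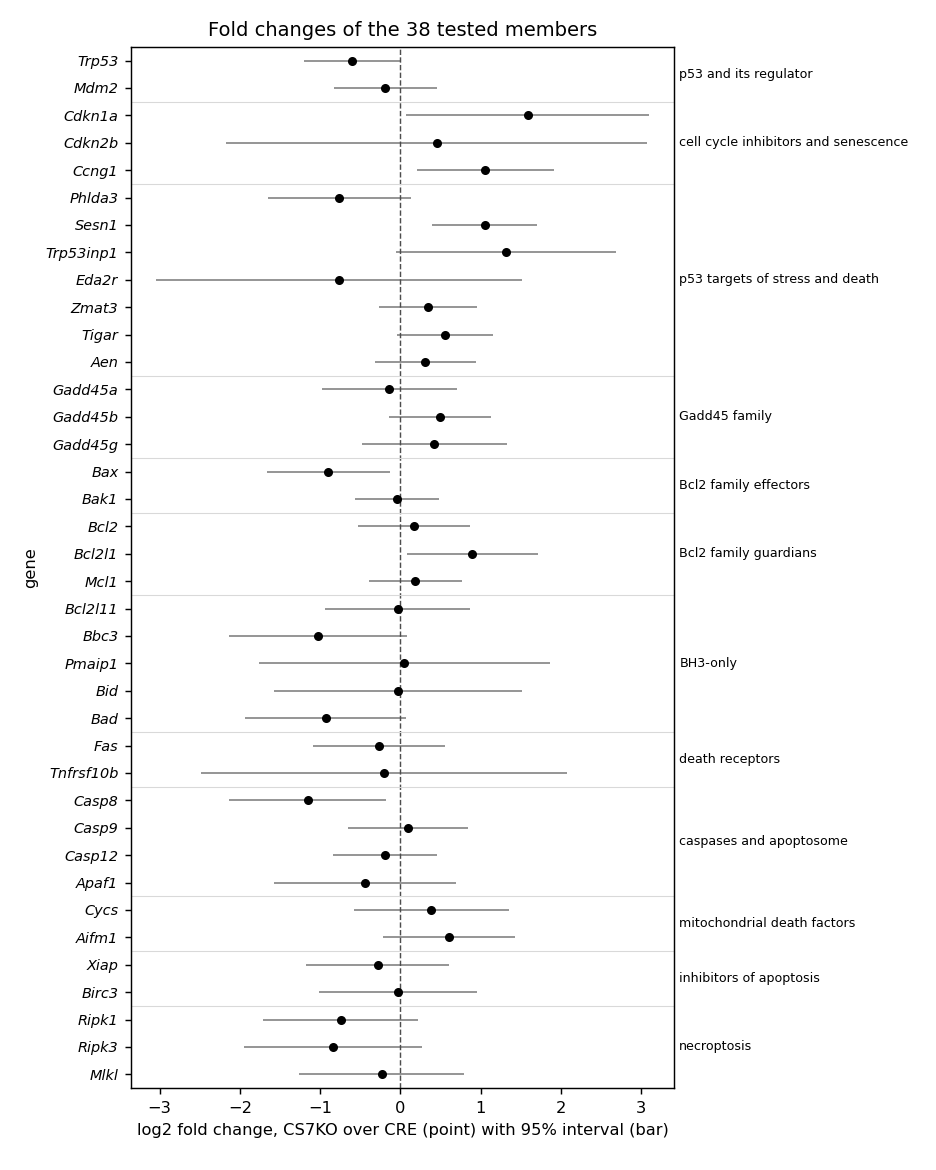
Log2 fold change of CS7KO over CRE for the 38 tested members (points) with 95% intervals (bars), by role; the dashed line marks no change. No member passed the test over all genes, and the points run from -1.16 for Casp8 to 1.59 for Cdkn1a.

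Trp53 itself, the gene of p53, was lower in every CS7KO library than in every CRE library, without passing the test. It had 8.47, 15.3, 14.3 and 12.5 CPM in CS7KO 1 to 4, against 19.8, 16.9, 17.4 and 22.4 CPM in CRE 1, 2, 3 and 5. The log2 fold change was -0.60 (SE 0.27, 95% interval -1.20 to 0.0072, edgeR adjusted p = 0.400). Mdm2, the ligase that degrades p53, averaged 46.7 ± 3.81 CPM in CS7KO and 54.7 ± 24.3 CPM in CRE (SD, n = 4 each; log2 fold change -0.19, SE 0.29). The 4 CS7KO libraries and CRE 1, 2 and 3 lay between 40.9 and 51.6 CPM, and CRE 5 stood alone at 91.1 CPM. Within a library, Mdm2 had 3.93 ± 1.27 times the reads of Trp53 in CS7KO and 2.79 ± 0.862 times in CRE. CS7KO 1 had the highest such ratio, at 5.63, and CRE 1 the lowest, at 2.18.

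Cdkn1a, which encodes the cell cycle inhibitor p21 and is the best known target of p53, split the CS7KO hearts. It had 225, 29.3, 172 and 26.2 CPM in CS7KO 1 to 4, against 31.3, 28.2, 51.2 and 42.7 CPM in CRE 1, 2, 3 and 5. CS7KO 1 and 3 lay above every CRE library, while CS7KO 2 lay within the CRE range and CS7KO 4 below it. Of the 2 high libraries, 1 was labelled male and 1 female. The highest CS7KO library had 8.61 times the lowest, a range that 2.68% of all tested genes reached or exceeded, while in CRE the highest had 1.82 times the lowest. The group means were 113 ± 101 CPM in CS7KO and 38.4 ± 10.6 CPM in CRE, and the log2 fold change of 1.59 (SE 0.68, edgeR adjusted p = 0.375) did not pass. It was 0.66 without CS7KO 1 and 1.12 without CS7KO 3. With no filter on low counts, in a fit of 48657 genes, Cdkn1a passed at a log2 fold change of 1.70 (edgeR adjusted p = 0.00184).

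Trp53inp1, a p53-induced nuclear protein that acts in autophagy and cell death, had the same shape. Its values were 88.2, 15.7, 52.6 and 17.6 CPM in CS7KO 1 to 4, against 8.31, 16.8, 30.8 and 16.0 CPM in CRE 1, 2, 3 and 5. CS7KO 1 and 3 again lay above every CRE library, and CS7KO 2 and 4 lay within the CRE range (log2 fold change 1.31, SE 0.61, edgeR adjusted p = 0.413). It was 0.48 without CS7KO 1, and with no filter on low counts it passed at 1.4245 (edgeR adjusted p = 0.0235). The guardian Bcl2l1, which blocks Bax and Bak1 at the mitochondrion, had 128, 53.3, 87.4 and 50.2 CPM in CS7KO 1 to 4, against 29.6, 41.0, 55.8 and 46.0 CPM in CRE 1, 2, 3 and 5. CS7KO 1 and 3 lay above every CRE library, and CS7KO 2 and 4 lay within the CRE range. Its log2 fold change was 0.90 (SE 0.36, edgeR adjusted p = 0.363), and 0.50 without CS7KO 1.

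Summed markers of some other cell types followed these values inside the CS7KO group, and those of others did not. The summed level of 10 endothelial markers was 2571, 1213, 2097 and 1015 CPM in CS7KO 1 to 4. That of 10 fibroblast markers was 5435, 2217, 4359 and 2178 CPM. The 5 erythroid markers summed to 1734, 940, 2930 and 929 CPM. CS7KO 1 and 3 were thus also the CS7KO libraries with the higher sum of each of these lists, and with more Smad7. Not every single marker followed its sum. CS7KO 2 was the highest CS7KO library in the endothelial Emcn (63.8 CPM), and CS7KO 1 the lowest in the fibroblast Tcf21 (7.04 CPM). The 10 cardiomyocyte markers summed to 46494, 44622, 45491 and 53944 CPM in CS7KO 1 to 4 and did not follow the order of those sums. Macrophage markers summed to 598, 650, 601 and 651 CPM and lymphocyte markers to 12.7, 21.3, 13.6 and 17.6 CPM, each lowest in CS7KO 1 and 3. Smooth muscle markers summed to 6096, 4380, 4195 and 4178 CPM. In CRE libraries the highest sums were 5710 CPM for endothelial, 5922 CPM for fibroblast and 1914 CPM for erythroid markers. The part of cell makeup in the Cdkn1a, Trp53inp1 and Bcl2l1 values was not tested.

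**Figure D3:**
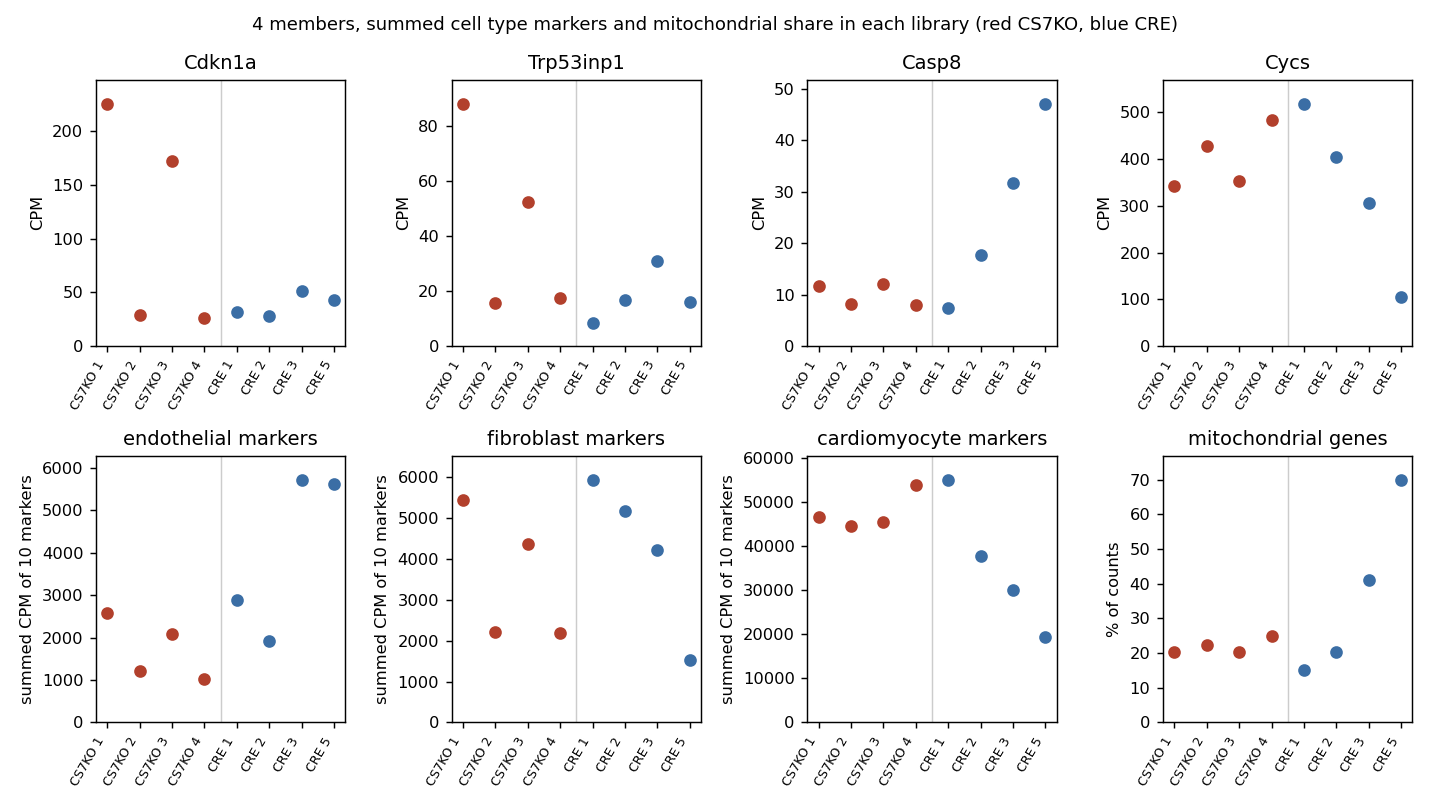
CPM of Cdkn1a, Trp53inp1, Casp8 and Cycs (top) and, in the same libraries, the summed CPM of 10 endothelial, 10 fibroblast and 10 cardiomyocyte markers and the share of counts from mitochondrial genes (bottom); each point is 1 library, CS7KO left of CRE. CS7KO 1 and 3 are high in Cdkn1a and Trp53inp1 and are the higher CS7KO libraries in endothelial and fibroblast markers, and CRE 3 and 5 are high in Casp8, endothelial markers and mitochondrial share.

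Sesn1 and Ccng1 did not show the split of Cdkn1a among the CS7KO libraries. Sesn1, sestrin 1, a stress-induced inhibitor of mTORC1, had 192, 126, 146 and 151 CPM in CS7KO 1 to 4, against 53.1, 98.2, 86.4 and 59.3 CPM in CRE 1, 2, 3 and 5. Every CS7KO library lay above every CRE library. The fold was 2.07 (log2 1.05, SE 0.29, 95% interval 0.39 to 1.71), with the smallest p of all members (edgeR adjusted p = 0.291, DESeq2 adjusted p = 0.0218). Over all alternatives its log2 fold change stayed between 0.79 and 1.25.

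Ccng1, cyclin G1, a p53 target that recruits a phosphatase to Mdm2, was the member with the highest level per length of gene. It had 1089, 1115, 847 and 1253 CPM in CS7KO 1 to 4, against 748, 887, 362 and 292 CPM in CRE 1, 2, 3 and 5. The groups overlapped by CRE 2 alone, which lay above CS7KO 3 (fold 2.08, log2 1.06, SE 0.38, edgeR adjusted p = 0.320, DESeq2 adjusted p = 0.0385). The low CRE libraries were 3 and 5, those with most mitochondrial reads, and in a fit without both of them and with no term for labelled sex the log2 fold change was 0.34. Every value given below without CRE 3 and CRE 5 comes from that fit, so the effect of the libraries and that of the term cannot be told apart.

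Tigar, a phosphatase that turns sugar away from glycolysis, had 51.0, 54.3, 60.3 and 61.0 CPM in CS7KO 1 to 4, against 43.5, 49.7, 38.9 and 24.0 CPM in CRE 1, 2, 3 and 5. All CS7KO libraries were higher than all CRE libraries, by a log2 fold change of 0.56 (SE 0.27, edgeR adjusted p = 0.425), with CRE 2 just below CS7KO 1. Phlda3, which opposes Akt signalling, had 20.6, 26.6, 18.6 and 21.4 CPM in CS7KO 1 to 4, against 91.6, 28.2, 21.5 and 23.6 CPM in CRE 1, 2, 3 and 5. CRE 1 alone stood out. The log2 fold change of -0.76 (SE 0.40, edgeR adjusted p = 0.460) was -0.17 without CRE 1. The RNA-binding protein gene Zmat3 and the nuclease gene Aen were at 0.34 (SE 0.27) and 0.31 (SE 0.28) on the log2 scale. Eda2r, a receptor of the TNF family, had 2.48 ± 0.785 CPM in CS7KO, and in CRE it had 5.20 to 6.73 CPM apart from the 0 counts in CRE 1 (log2 fold change -0.77, SE 1.02).

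**Figure D4:**
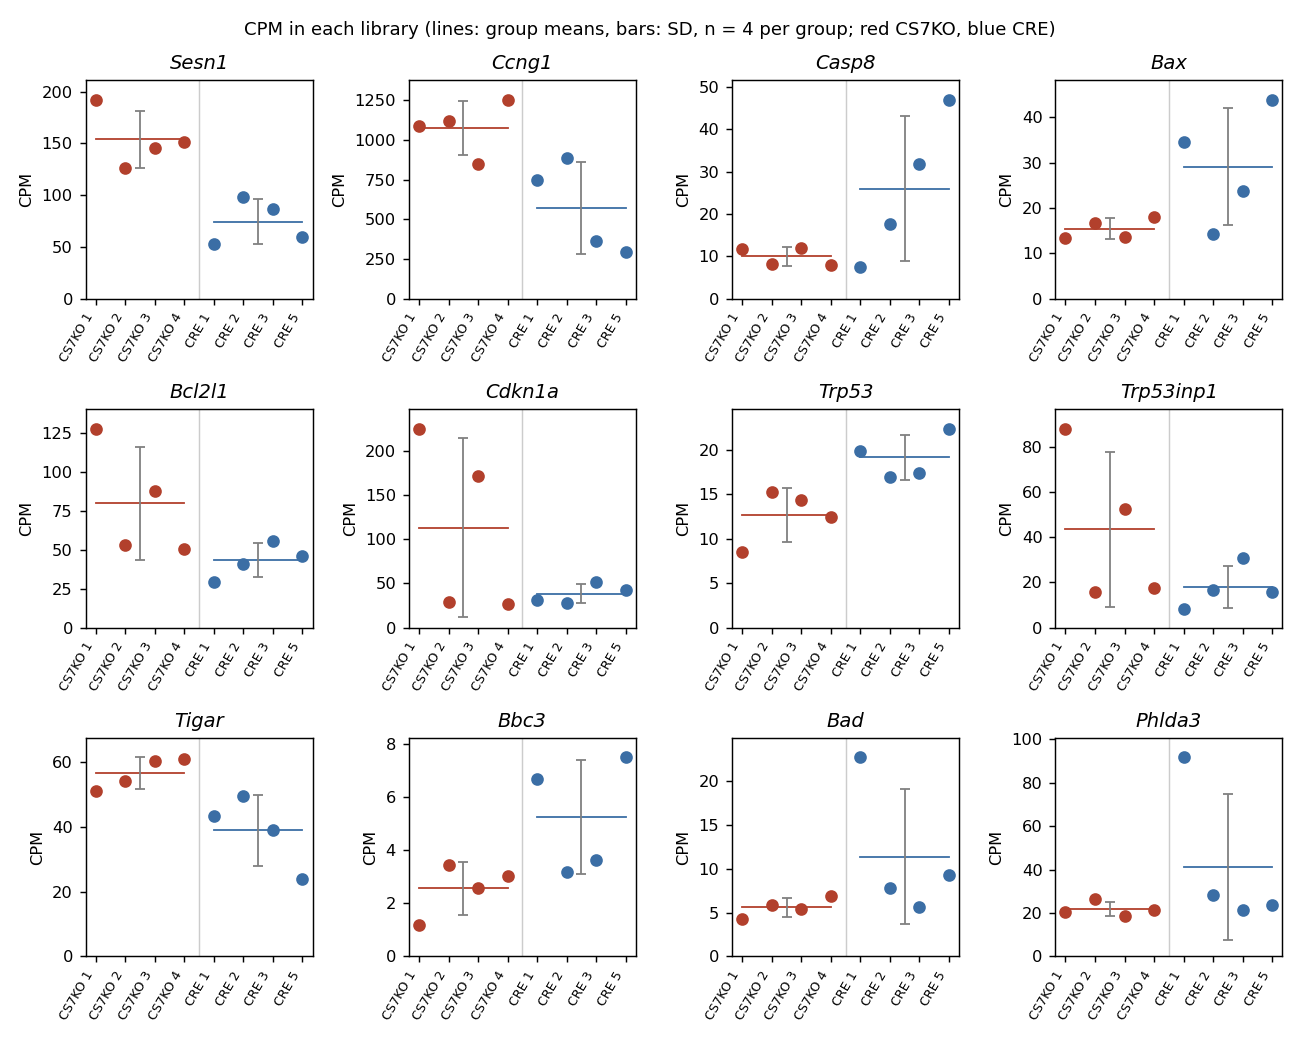
CPM in each library for the 12 tested members with the smallest p, CS7KO left of CRE; horizontal lines are group means and bars are SDs (n = 4 each). Sesn1 and Tigar lie higher and Trp53 lower in all CS7KO libraries than in all CRE libraries, while Cdkn1a, Bcl2l1 and Trp53inp1 are high in CS7KO 1 and 3.

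The other inhibitors of the cell cycle, read as markers of senescence, had few counts. Cdkn2a, which encodes p16 and Arf, had 1, 5, 14 and 3 counts in CS7KO 1 to 4, against 46, 4, 11 and 9 counts in CRE 1, 2, 3 and 5, and was not tested. It reached 2.03 CPM in CRE 1 and 1.09 CPM in CRE 5, and no more than 0.390 CPM in the other libraries. Cdkn2b, which encodes p15, had 1.22 ± 0.400 CPM in CS7KO and 0.877 ± 0.958 CPM in CRE, with 0 counts in CRE 1 (log2 fold change 0.45, SE 1.18). The antisense lncRNA Gm12610 overlaps Cdkn2b and had 84.8% as many counts, and without strand information the reads of both cannot be told apart.

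The Gadd45 genes encode small stress sensors that feed the p38 and JNK kinases. Gadd45a had 3.33, 7.73, 4.16 and 6.55 CPM in CS7KO 1 to 4, against 5.48, 6.98, 5.35 and 6.17 CPM in CRE 1, 2, 3 and 5. The CRE values lay inside the CS7KO range (log2 fold change -0.14, SE 0.38). Gadd45b, a target of TGF-beta signalling, averaged 11.98 ± 1.85 CPM in CS7KO and 8.65 ± 2.17 CPM in CRE (log2 fold change 0.49, SE 0.29, edgeR adjusted p = 0.512). Gadd45g averaged 27.8 ± 10.3 CPM in CS7KO and 21.7 ± 10.2 CPM in CRE (log2 fold change 0.42, SE 0.40).

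Of the pore-forming effectors, Bax was lower in CS7KO on average without passing, and Bak1 had a fitted difference near 0. Bax had 13.4, 16.7, 13.5 and 18.0 CPM in CS7KO 1 to 4, against 34.5, 14.3, 23.7 and 43.9 CPM in CRE 1, 2, 3 and 5. CRE 2 lay among the CS7KO values and the other CRE libraries lay above them all (log2 fold change -0.90, SE 0.34, edgeR adjusted p = 0.338). Without CRE 1 and CRE 5 the difference was -0.22. Bak1 averaged 15.4 ± 1.15 CPM in CS7KO and 16.0 ± 2.13 CPM in CRE, with a log2 fold change of -0.05 (95% interval -0.57 to 0.48). Ggnbp1 overlaps Bak1 on the opposite strand, with 73.3% as many counts.

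The guardians Bcl2 and Mcl1 had small fitted differences. Bcl2 had 13.7, 20.2, 14.8 and 20.5 CPM in CS7KO 1 to 4, against 12.6, 24.2, 11.1 and 14.8 CPM in CRE 1, 2, 3 and 5, and the groups overlapped (log2 fold change 0.17, SE 0.31). Mcl1, which cardiomyocytes need to survive, had the highest level of the guardians per length of gene. It averaged 254 ± 27.8 CPM in CS7KO and 223 ± 23.8 CPM in CRE (log2 fold change 0.18, 95% interval -0.40 to 0.76).

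Ratios of counts within a library do not depend on the scaling between libraries. They are not corrected for gene length and are read across libraries only. Bax had 0.975, 0.825, 0.912 and 0.880 times the counts of Bcl2 in CS7KO 1 to 4, against 2.74, 0.593, 2.14 and 2.98 times in CRE 1, 2, 3 and 5. The CS7KO hearts were close to each other, 3 CRE hearts lay above them and CRE 2 lay below. Bax over Bcl2l1 was 0.233 ± 0.122 in CS7KO and 0.725 ± 0.400 in CRE, and again CRE 2, at 0.350, lay within the CS7KO range, which ended at 0.359. Mcl1 over Bcl2l1 was 3.56 ± 1.12 in CS7KO and 5.48 ± 1.59 in CRE, with the lowest value of 2.23 in CS7KO 1. These ratios were described without a test.

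**Figure D5:**
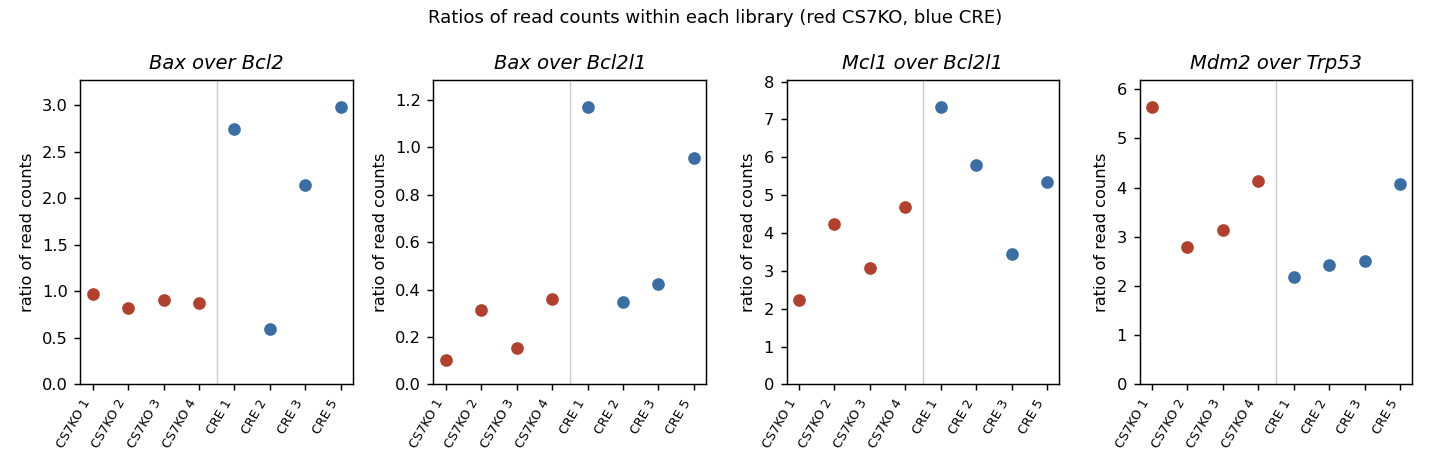
Ratios of read counts of Bax to Bcl2, Bax to Bcl2l1, Mcl1 to Bcl2l1 and Mdm2 to Trp53 within each library, CS7KO left of CRE, with 1 point for each library. The Bax to Bcl2 ratio lies between 0.825 and 0.975 in the CS7KO libraries and between 0.593 and 2.98 in the CRE libraries.

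The BH3-only genes, whose products carry the death signal to the guardians, had at most 22.7 CPM in any library, and 4 of 5 had a fitted fold change below 0. Bbc3, which encodes Puma, a p53 target, had 1.18, 3.46, 2.60 and 3.02 CPM in CS7KO 1 to 4, against 6.67, 3.19, 3.65 and 7.50 CPM in CRE 1, 2, 3 and 5 (log2 fold change -1.03, SE 0.50, edgeR adjusted p = 0.425). CS7KO 2 lay above CRE 2, so the groups overlapped. Bad had 4.30, 5.89, 5.36 and 6.88 CPM in CS7KO 1 to 4, against 22.7, 7.75, 5.63 and 9.32 CPM in CRE 1, 2, 3 and 5 (log2 fold change -0.93, SE 0.45, edgeR adjusted p = 0.426). CRE 1 was the high library, and CRE 3 lay among the CS7KO values. Bcl2l11, which encodes Bim, had 8.09, 5.94, 13.1 and 6.77 CPM in CS7KO 1 to 4, against 4.24, 8.20, 16.6 and 6.65 CPM in CRE 1, 2, 3 and 5. Its log2 fold change was -0.03 (95% interval -0.93 to 0.87). Pmaip1 (Noxa) and Bid lay between 0.363 and 3.71 CPM in all libraries, at log2 fold changes of 0.05 (SE 0.81) and -0.03 (SE 0.69). Bid overlaps Bcl2l13, and Bad overlaps Gpr137, each on the opposite strand and with more counts than the member itself, so both values are uncertain.

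Casp8, Fas, Tnfrsf10b, Ripk1 and Mlkl, of the receptor path and of necroptosis, had their highest values in CRE 3 and CRE 5. Casp8, the initiator caspase of death receptors, had 11.8, 8.12, 12.1 and 8.00 CPM in CS7KO 1 to 4, against 7.47, 17.8, 31.8 and 47.1 CPM in CRE 1, 2, 3 and 5. CRE 1 lay below every CS7KO library and the other CRE libraries lay above them all (log2 fold change -1.16, SE 0.44, edgeR adjusted p = 0.338). Without CRE 3 and CRE 5, and with no term for labelled sex, the difference was -0.39. Fas, a death receptor and p53 target, had 24.5, 17.0, 25.6 and 14.2 CPM in CS7KO 1 to 4, against 14.5, 14.8, 40.3 and 41.1 CPM in CRE 1, 2, 3 and 5 (log2 fold change -0.27, SE 0.37), and the difference was 0.42 without CRE 3 and CRE 5. Tnfrsf10b, the TRAIL receptor of mice, had 4.23 to 4.70 CPM in CS7KO, against 0 counts in CRE 1 and 4.16, 12.2 and 13.2 CPM in CRE 2, 3 and 5.

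Ripk1, the kinase that decides between survival, apoptosis and necroptosis below TNF receptors, followed the same order. It had 15.0009, 8.54, 11.4 and 7.27 CPM in CS7KO 1 to 4, against 8.04, 13.9, 22.6 and 33.9 CPM in CRE 1, 2, 3 and 5. CRE 3 and CRE 5 lay above all CS7KO libraries, and CRE 1 and CRE 2 did not (log2 fold change -0.75, SE 0.43, edgeR adjusted p = 0.516). Its overlap with Serpinb6a on the opposite strand, a gene with more counts, makes this value uncertain. Ripk3 averaged 3.78 ± 1.94 CPM in CS7KO and 6.97 ± 3.54 CPM in CRE (log2 fold change -0.84, SE 0.50). Mlkl, the executor of necroptosis, averaged 3.99 ± 1.03 CPM in CS7KO and 4.97 ± 2.24 CPM in CRE (log2 fold change -0.23, SE 0.46). The 3 necroptosis genes thus all had a fitted fold change below 0, and that of Mlkl was 0.22 without CRE 3 and CRE 5.

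Xiap, which binds and blocks caspases, had 74.7, 34.0, 52.9 and 35.0 CPM in CS7KO 1 to 4, against 32.8, 44.8, 86.9 and 96.2 CPM in CRE 1, 2, 3 and 5. CRE 3 and CRE 5 were above, and CRE 1 below, all CS7KO libraries (log2 fold change -0.29, SE 0.40, and 0.29 without CRE 3 and CRE 5). Birc3, a ubiquitin ligase of TNF receptor complexes, averaged 12.4 ± 2.60 CPM in CS7KO and 14.2 ± 8.18 CPM in CRE. Apaf1, the scaffold of the apoptosome, averaged 9.43 ± 1.85 CPM in CS7KO and 13.9 ± 8.82 CPM in CRE, with 2.96 CPM in CRE 1 and 24.6 CPM in CRE 5. Casp9, the caspase it activates, averaged 10.4 ± 2.43 CPM in CS7KO and 9.83 ± 3.64 CPM in CRE. Casp12, a caspase of the endoplasmic reticulum in mice, averaged 24.6 ± 6.92 CPM in CS7KO and 28.5 ± 7.17 CPM in CRE (log2 fold changes -0.44, 0.10 and -0.19 for Apaf1, Casp9 and Casp12).

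The mitochondrial proteins that turn into death factors once released ran the other way among the CRE hearts. Cycs, which encodes cytochrome c, had 342, 429, 352 and 484 CPM in CS7KO 1 to 4, against 518, 405, 306 and 104 CPM in CRE 1, 2, 3 and 5. CRE 5 was the lowest and CRE 1 the highest of all libraries, so the CS7KO values lay inside the CRE range (log2 fold change 0.38, SE 0.43). Aifm1, a flavoprotein of respiratory chain assembly, averaged 57.7 ± 3.57 CPM in CS7KO, against 60.5, 60.7, 33.2 and 13.8 CPM in CRE 1, 2, 3 and 5 (log2 fold change 0.61, SE 0.37, edgeR adjusted p = 0.534). Without CRE 3 and CRE 5 both turned, to -0.25 for Cycs and -0.13 for Aifm1.

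Marker genes of several cell types also differed among the CRE hearts. The 10 endothelial markers summed to 1015 to 2571 CPM in CS7KO libraries, against 2882, 1918, 5710 and 5627 CPM in CRE 1, 2, 3 and 5, and all 10 had a fitted fold change below 0. The endothelial sum was high in CRE 3 and CRE 5, as Casp8, Fas, Ripk1 and Xiap were, but it was higher in CRE 1 than in CRE 2, which those members were not. The 10 fibroblast markers summed to 5922, 5163, 4229 and 1521 CPM in CRE 1, 2, 3 and 5, and 6 of 10 had a fitted fold change below 0. The 10 cardiomyocyte markers summed to 54930, 37787, 30081 and 19277 CPM in CRE 1, 2, 3 and 5, and 8 of 10 had a fitted fold change above 0. Macrophage markers summed to 598 to 651 CPM in CS7KO, against 1943, 853, 472 and 474 CPM in CRE 1, 2, 3 and 5. Lymphocyte markers summed to 12.7 to 21.3 CPM in CS7KO and 14.6 to 29.6 CPM in CRE. Erythroid markers summed to 929 to 2930 CPM in CS7KO and 1005 to 1914 CPM in CRE, and smooth muscle markers to 4178 to 6096 CPM in CS7KO and 1774 to 3983 CPM in CRE. The largest term of the smooth muscle sum was Des, which cardiomyocytes also express, at 3796 CPM in CS7KO and 1985 CPM in CRE on average, and 8 of the 10 smooth muscle markers had a fitted fold change below 0 (median -0.27). No marker was at 0 in all libraries and none passed the edgeR test. Of 61 tested markers, DESeq2 called 3 as higher in CS7KO (Myh6, Ryr2 and Des) and 3 as lower (Tek, Tie1 and Egfl7). Its share over all tested genes was 3.14%. The part of cell makeup or of mitochondrial reads in the member values was not tested. CRE 3 and CRE 5 are also both CRE libraries labelled female, so library and labelled sex cannot be told apart there.

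The contrast of CS7KO and CRE was compared between the labelled sexes, with 2 libraries a group. No member passed that test of the difference (smallest edgeR adjusted p = 0.667), nor did any of 16002 genes (0%). An unadjusted p under 0.05 was found for 6 of 38 members and 7.08% of all genes. These were Gadd45g, Fas, Casp8, Xiap and Ripk1, where the fold change of female over that of male hearts lay between -1.81 and -1.53 on the log2 scale, and Aifm1, at 1.35.

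Per length of the gene, the order of levels was led by the same 3 members in both groups. Ccng1 had 306 CPM per kilobase in CS7KO and 163 in CRE, Cycs 118 in CS7KO and 97.9 in CRE, and Mcl1 74.2 in CS7KO and 65.3 in CRE. Cdkn1a had rank 5 in CS7KO, at 31.9 CPM per kilobase, and rank 9 in CRE, at 10.8. Phlda3 and Bax stood lower in the CS7KO order than in the CRE order, with 14.0 and 9.78 CPM per kilobase in CS7KO and 26.5 and 18.5 in CRE. Casp8, Ripk3 and Bbc3 were lower than these in both groups, at 3.45, 1.65 and 1.21 in CS7KO and 8.99, 3.04 and 2.47 in CRE. At the end of the order, Cdkn2a, Cdkn2b, Eda2r, Pmaip1, Bid and Tnfrsf10b were below 1 CPM per kilobase in CS7KO. The order of neighbours was not tested.

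Among all tested genes 0.0375% passed and 48.1% had a fitted fold change below 0, as given above. Other genes of the same pathways came from 8 lists of 101 genes outside the members. Of 93 tested, 62.4% had a fitted fold change below 0, and 1 gene passed. It was Cyfip2, a subunit of the actin-regulating WAVE complex known as p53-inducible in human cells, which was put on the list with its result known. It rose to 115 ± 18.2 CPM in CS7KO, against 21.6 ± 7.94 CPM in CRE (log2 fold change 2.44, SE 0.31, edgeR adjusted p = 0.0390), and did not pass without CRE 1, CRE 3, CRE 5 or any 1 CS7KO library (edgeR adjusted p from 0.0581 to 0.272), while its log2 fold change was 2.25 to 2.67 with any 1 library left out. Of the 29 tested p53 targets on that list, 10 had a fitted fold change above 0 and 19 below, with a median of -0.18, and the lipid transfer protein gene Pltp had the next smallest p (-0.92, SE 0.31, edgeR adjusted p = 0.3002). Among regulators of p53, Hipk2, a kinase that phosphorylates p53, had 142, 37.3, 44.6 and 62.2 CPM in CS7KO 1 to 4, against 13.6, 22.1, 8.07 and 9.80 CPM in CRE 1, 2, 3 and 5 (log2 fold change 2.45, SE 0.41, edgeR adjusted p = 0.156). Chek2, a checkpoint kinase of the DNA damage response, averaged 2.34 CPM in CS7KO and 9.37 CPM in CRE (-1.93, SE 0.58, edgeR adjusted p = 0.291). In both genes the groups did not overlap. DESeq2 called both, with an adjusted p of 6.49e-06 for Hipk2 and 0.0316 for Chek2. Hipk2 also passed edgeR with no filter on low counts (adjusted p = 2.59e-08) and without CS7KO 2 (adjusted p = 0.0402). It passed edgeR under no other alternative, with an adjusted p from 0.104 without CRE 2 to 0.923 with the replicate block. The 11 tested regulators had 7 fold changes above 0 and 4 below.

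In the further Bcl2 family, with 6 of 12 genes on either side of 0, the guardian Bcl2l2 (Bcl-w) had 67.3 to 79.6 CPM in CS7KO and 25.0 to 59.0 CPM in CRE (1.04, SE 0.29, edgeR adjusted p = 0.291). Bok, an effector akin to Bax, averaged 6.98 CPM in CS7KO and 15.3 CPM in CRE (-1.11, SE 0.39). All 6 tested caspases of that list had a fitted fold change below 0, with a median of -0.44. The inflammatory Casp1 was at -0.93 (SE 0.58), and at 0.12 without CRE 3 and CRE 5. Of 12 death ligands, receptors and adaptors 8 lay below 0, and the ligands Tnfsf12 (TWEAK) and Tnfsf10 (TRAIL) were at -1.37 (SE 0.39) and -1.73 (SE 0.55), both with an edgeR adjusted p of at least 0.291. Of the 7 genes of mitochondrial release and inhibitors of apoptosis, 5 lay below 0. Septin4, whose ARTS form antagonises Xiap, had 9.40 to 14.7 CPM in CS7KO and 18.8 to 66.9 CPM in CRE (-1.48, SE 0.33, edgeR adjusted p = 0.262), and Diablo, which encodes Smac, was at -0.84 (SE 0.37). Of 9 partners in necroptosis and pyroptosis 4 lay below 0, with the pore-forming Gsdmd at -1.27 (SE 0.44) and the mitochondrial phosphatase gene Pgam5 at 0.65 (SE 0.29). Of 7 other inhibitors of the cell cycle 6 lay below 0, with Cdkn1c (p57) at -1.54 (SE 0.51) and Rbl2, a retinoblastoma relative, at 1.13 (SE 0.74). These values are log2 fold changes of CS7KO over CRE, none of which passed the edgeR test other than that of Cyfip2. DESeq2 called 3 of the 93 pathway genes as higher in CS7KO (Cyfip2, Hipk2 and Bcl2l2) and 4 as lower (Septin4, Chek2, Tnfsf10 and Tnfsf12). Its share over all tested genes was 3.14%. Of the genes named here, Cyfip2, Hipk2, Tnfsf10, Septin4 and Cdkn1c passed edgeR with no filter on low counts.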

How the data were processed

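RNA of whole mouse hearts was extracted with Trizol and sequenced on Illumina libraries of polyadenylated RNA, per the labels. Deposited by the authors was 1 table with the raw count of reads for each gene in each library, beside gene identifiers, symbols, lengths and coordinates. Per the submitters' processing notes, HTSeq 0.6.1, Cufflinks 2.1.1, TopHat2 2.0 and CASAVA were used, and mm10 and GRCm38.p6 are the builds named, with no roles. The sources used here do not give the use of strand or of reads that match several genes. The build of the table's coordinates was not settled, so none are printed, and promoter sequences and positions are those of RefSeq on GRCm38.p6.

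The test was that of edgeR 4.0.16 (R 4.3.3): filterByExpr on genotype (minimum count 10, minimum total 15), TMM scaling, and a robust quasi-likelihood fit of genotype and labelled sex over all 8 libraries. Benjamini and Hochberg adjustment ran over all 16002 tested genes. Fold changes are CS7KO over CRE. Interaction with labelled sex used 4 groups of 2 libraries. The fit was tested on simulated data. Libraries of a group differed beyond sampling noise (chi-square per degree of freedom at least 10.2). Alternatives were DESeq2 1.42.0, RLE scaling, a stricter filter on low counts or none, no term for labelled sex, a replicate block, removal of mitochondrial genes, and left-out libraries.

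Members, lists and left-out libraries were chosen with earlier results of these data known. Values in every library are given for the 12 tested members with the smallest p and the first of each role, and of each pathway list the 2 genes with the smallest p and any that passed are named, except 1 gene that is not reported here; further library values were printed after they were seen. Of 101 pathway genes 100 were found. No column of the table was left unmapped.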

Additional observations from a re-analysis of the deposited data

Results flagged for a closer look

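In 76 sets of 4 library values (38 tested members in 2 groups), the highest or lowest library was set apart from the other 3 in 2 sets, by a gap past Dixon's 95% critical value. Chance sets about 1 in 20 such groups apart. Mdm2 had 91.1 CPM in CRE 5, against 40.9 to 43.5 CPM in the other CRE libraries. Phlda3 had 91.6 CPM in CRE 1, against 21.5 to 28.2 CPM in the other CRE libraries. No CS7KO library was set apart in this way for a member.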

How the results depend on the processing

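No member passed under 7 of the 9 alternatives other than leaving out 1 library, nor with any 1 library left out. DESeq2 called 2 members as higher (Sesn1 and Ccng1), and edgeR with no filter on low counts called 2 as higher (Cdkn1a and Trp53inp1), and neither called a member as lower. Among all genes, the calls of 3 higher and 3 lower became 248 and 255 in DESeq2, and 1 and 1 with the replicate block. They became 212 and 126 among 48657 tested genes with no filter, and 8 and 8 among 18671 without CRE 1 and CRE 5. With 1 library left out they ranged from 1 to 7 higher and from 2 to 7 lower. The cause was not tested. The replicate numbers gave correlations of 0.04, -0.09 and 0.35 between same-numbered libraries, so they do not pair the samples, and 1 of 3 numbers matched its own best. In the fit with the block, CS7KO 4 and CRE 5 had no library of the same number, so genotype was compared within numbers 1, 2 and 3 only. No member passed there, and Cyfip2 did not pass (edgeR adjusted p = 0.321). Of 486 values of the 54 genes followed, 36 turned in sign (log2 fold changes in brackets), all from members or Casp1 that had not passed, and 14 gained a call: in DESeq2 Sesn1, Ccng1, Bcl2l2, Tnfsf12, Tnfsf10, Septin4, Hipk2 and Chek2, and with no filter Cdkn1a, Trp53inp1, Tnfsf10, Septin4, Cdkn1c and Hipk2. With RLE size factors, the sign turned for Bid (0.0005). With no filter on low counts, the sign turned for Bak1 (0.0612), Bcl2l11 (0.0718), Bid (0.0796) and Birc3 (0.0558). With the replicate block, the sign turned for Mdm2 (0.0827), Bcl2l11 (0.0292), Fas (0.10), Tnfrsf10b (0.82), Apaf1 (0.25), Cycs (-0.10), Xiap (0.0096), Birc3 (0.39) and Mlkl (0.10). With mitochondrial genes left out, the sign turned for Bcl2l11 (0.0113), Bid (0.0133) and Birc3 (0.0019). Without CRE 1 and CRE 5, the sign turned for Mdm2 (0.20), Cdkn2b (-0.39), Bak1 (0.13) and Casp9 (-0.19). Without CRE 3 and CRE 5 and with no term for labelled sex, the sign turned for Mdm2 (0.0985), Aen (-0.0762), Bcl2 (-0.15), Bcl2l11 (0.39), Pmaip1 (-0.31), Fas (0.42), Tnfrsf10b (1.04), Casp12 (0.0034), Apaf1 (0.0789), Cycs (-0.25), Aifm1 (-0.13), Xiap (0.29), Birc3 (0.61), Mlkl (0.22) and Casp1 (0.12). With 1 library left out, fold changes that crossed 0 ranged as follows: Bak1 (-0.12 to 0.042), Bcl2l11 (-0.19 to 0.33), Bid (-0.41 to 0.38), Birc3 (-0.38 to 0.21), Casp9 (-0.0694 to 0.34), Eda2r (-1.25 to 0.16), Fas (-0.51 to 0.061), Gadd45a (-0.41 to 0.068), Mdm2 (-0.32 to 0.15), Mlkl (-0.50 to 0.0368), Pmaip1 (-0.38 to 0.60), Tnfrsf10b (-0.83 to 0.19) and Xiap (-0.70 to 0.0088). The median of the members ranged from -0.15 to 0.14. Removal of mitochondrial genes or RLE factors moved the median of all genes by 0.04 and 0.02. The widest errors were those of Cdkn2b, Eda2r and Tnfrsf10b, the members with 0 counts in CRE 1.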
